A study of Mus musculus with 2 samples.

Results

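Transcripts of 8 genes of the EGF family and its receptors were followed through regenerating mouse muscle: the 5 ligand genes Areg, Ereg, Hbegf, Tgfa and Nrg1 and the 3 receptor genes Egfr, Erbb2 and Erbb3. The 8 genes, out of 27998 in the count tables, were chosen by name and summed over the barcodes of each annotated cell type at each day, so that the leukocyte and stromal sources of the ligands could be set beside the cells that held the receptors. Tibialis anterior muscle, at the front of the lower leg, was injured with notexin, a snake venom toxin that destroys muscle fibres, and dissociated 2 or 7 days later. The series held 2 single-cell libraries made with 10x Chromium 3′ version 3 chemistry, the day 2 library and the day 7 library, each from 1 C57Bl/6 mouse (C57BL/6J in the study's methods) for which the labels name no allele. Both libraries came from injured muscle, and no uninjured muscle was analysed here. With 1 library per day there was no replicate and no test, and every interval given in parentheses covers counting error only, at 95%.

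EGF family ligands are made as membrane-anchored precursors, and metalloproteases of the ADAM family cut them free. Amphiregulin (Areg), epiregulin (Ereg), heparin-binding EGF (Hbegf) and TGF alpha (Tgfa) bind the EGF receptor, whereas neuregulin 1 (Nrg1) binds ErbB3 and ErbB4. ErbB2 has no known ligand of its own and acts as the partner of the other receptors, and ErbB3 has little kinase activity and depends on that partner. Receptor pairs signal mainly through the RAS-ERK and PI3 kinase pathways, and EGFR-driven ERK activity is held back by feedback inhibitors. In injured muscle, amphiregulin is known as a product of regulatory T cells, and neuregulin with ErbB2 and ErbB3 is known for its part in Schwann cells and at the neuromuscular junction.

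Areg and Ereg are neighbours in the mouse genome (GRCm38). Areg lies at chr5:91139599-91148432 and Ereg at chr5:91074622-91093646, both on the plus strand, with 45952 bases and 0 annotated genes between them. The sequence before the Areg start is shown because Areg and Nrg1 had the steepest called ratios between the days, and RefSeq promoters were at hand for 4 members only (Areg, Tgfa, Egfr and Erbb2). The 250 bases upstream, chr5:91139349-91139598 (GRCm38.p6, plus strand, RefSeq), read as follows, with motif matches in capitals:
Areg: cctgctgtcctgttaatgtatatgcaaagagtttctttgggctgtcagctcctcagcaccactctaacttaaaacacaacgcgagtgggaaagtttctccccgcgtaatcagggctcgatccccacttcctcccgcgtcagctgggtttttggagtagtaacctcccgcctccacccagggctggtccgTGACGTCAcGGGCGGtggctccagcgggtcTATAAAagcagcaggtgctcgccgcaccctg
The capitals mark, from left to right, a cyclic AMP response element (TGACGTCA) that starts 61 bases before the start site, a GC box (GGGCGG) at position -52 and a TATA box (TATAAA) at position -31, each searched on both strands. In windows of 300 bases around the start of 32851 promoters, the cyclic AMP response element was found in 1.79%, the GC box in 35.7% and the TATA box in 13.6%. The AP-1 motif TGACTCA, present in 5.20% of the windows, was not in the Areg window. The windows of Tgfa, Egfr and Erbb2 held neither the cyclic AMP response element nor the TATA box.

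The deposited tables of called barcodes summed to 41123913 counts over 4836 barcodes for day 2 and to 32356088 counts over 4889 barcodes for day 7. Of these, 3178 and 3196 barcodes met the limits on quality and had an annotated cell type, with medians of 9058.5 and 6583 counts. Both libraries went against their labels, which give female mice of 7 months. Counts of Y-linked genes were 6575 and 4856, against 5 and 1 of Xist, and the authors' annotation gives male mice, of 4 months at day 2 and 7 months at day 7. Age and time after injury therefore cannot be told apart. The libraries shared 4 barcodes, 1 of them among the kept barcodes. Free RNA, read from barcodes with 1 to 100 counts, held the members at 0 to 58.9 counts per 1000000 counts (CPM). The 25 annotated types fell into 12 classes, of which 6 had at least 50 kept barcodes in both libraries: monocytes and macrophages, dendritic cells, T and natural killer (NK) cells, fibro-adipogenic progenitors (FAPs, the main stromal progenitors of muscle), endothelial cells and smooth muscle.

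The type labels were checked against their markers. All 7 markers of smooth muscle and pericytes, Rgs5 and Acta2 among them, were detected in the barcodes labelled smooth muscle. Even so, 249 of the 304 such barcodes at day 2 and 178 of 232 at day 7 held at least as many counts of 7 endothelial markers. In those 249 barcodes the summed endothelial markers were at 9253 CPM, against 9780 CPM in the endothelial types. Cdh5, the junction cadherin of endothelium, was detected in 249 of 249. They are called smooth-muscle-labelled barcodes below, and their values are also given for the 55 and 54 barcodes with more smooth muscle than endothelial marker counts. The label of T cells at day 2 covered 50 barcodes, of which 17 held at least 3 counts of basophil markers and 24 held any count of the T cell receptor partners Cd3d, Cd3e and Cd3g. At day 7, 0 of 293 T-cell-labelled barcodes carried 3 basophil counts and 250 had a Cd3 count. Of 21 barcodes labelled as muscle stem cells (MuSCs) at day 2, 5 had at least 3 counts of myogenic markers, so MuSC values at day 2 are not compared with those at day 7. At day 7, 135 of 137 MuSC barcodes had 3 such counts.

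**Figure D1:**
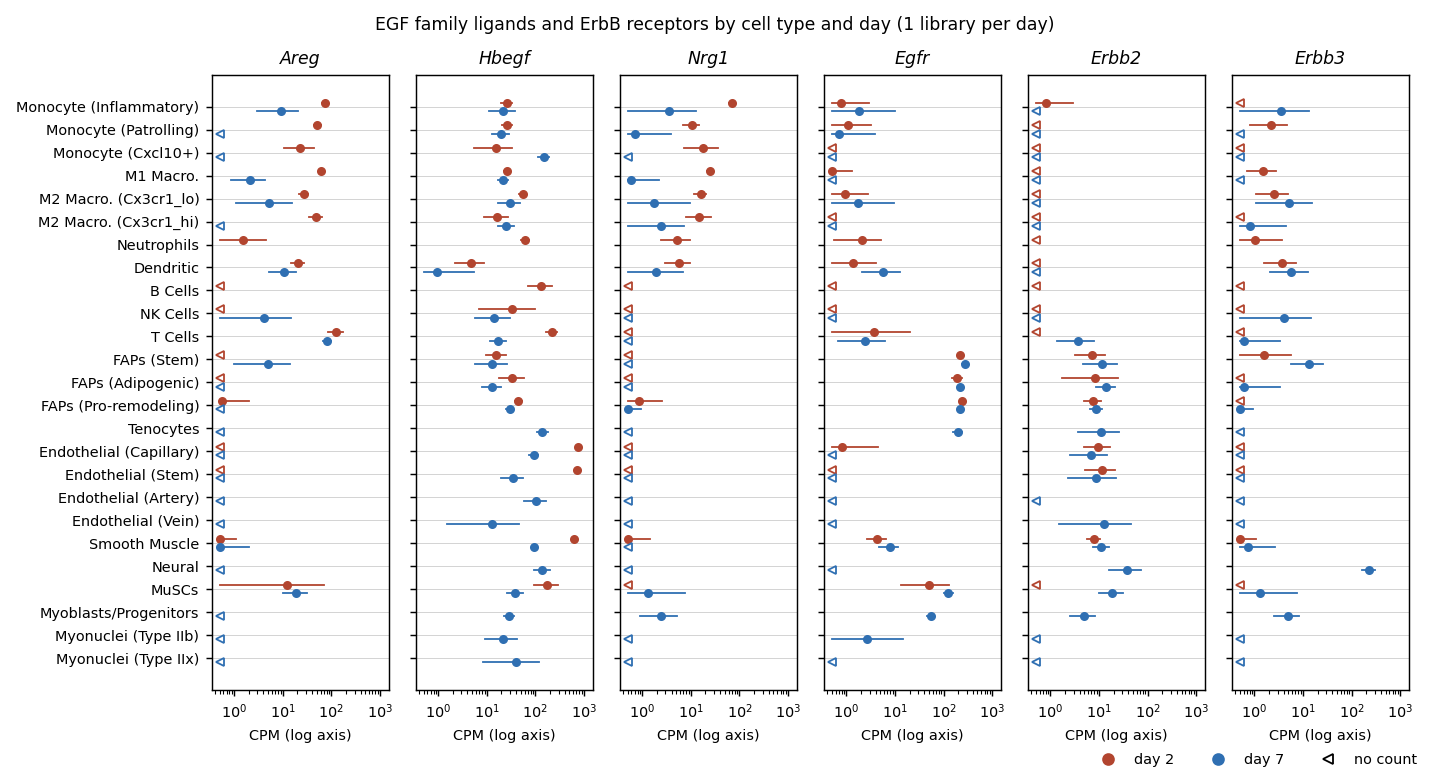
CPM (log axis) of 6 members in each annotated cell type with at least 20 kept barcodes, at day 2 (red) and day 7 (blue), with points for summed counts, lines for 95% counting intervals, open triangles for types with no count, and values under 0.5 CPM drawn at 0.5. Nrg1 and Areg stand to the right in monocytes and macrophages only at day 2, Hbegf is highest in endothelial and smooth-muscle-labelled barcodes at day 2 (636 to 757 CPM), Egfr is highest in the 3 FAP types on both days, and Erbb3 stands alone in neural barcodes at day 7 (224 CPM).

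Amphiregulin, a ligand of the EGF receptor, came from different leukocytes at the 2 days. Of 972 Areg counts at day 2, 887 were in monocytes and macrophages (91.3%, 89.3 to 93.0), a class that held 48.4% of all counts. Of 178 Areg counts at day 7, 134 were in T and NK cells (75.3%, 68.3 to 81.4), which held 7.66% of all counts, and 15 were in monocytes and macrophages (8.43%, 4.79 to 13.5). In monocytes and macrophages the level was 53.8 CPM at day 2 and 1.99 CPM at day 7, a log2 ratio of -4.75 (-5.60 to -4.02). Free RNA held Areg at 15.1 and 3.83 CPM, so the day 7 level in these cells lay below that of free RNA.

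All 6 monocyte and macrophage types held Areg counts at day 2. Inflammatory monocytes had 187 counts in 276 barcodes (74.2 CPM, 64.0 to 85.7). M1 macrophages, the largest type, had 422 counts in 468 barcodes (62.3 CPM, 56.5 to 68.6). Patrolling monocytes were at 51.1 CPM (43.0 to 60.2) and M2 macrophages with high Cx3cr1 at 48.4 CPM (34.9 to 65.4). These 4 types formed a chain in which the intervals of neighbours overlapped. Single barcodes set much of these levels: 1 held 70 of the 187 counts in inflammatory monocytes and 1 held 93 of the 422 in M1 macrophages. Without them the levels were 46.6 and 48.7 CPM, so the order of the 4 types was not fixed. Another barcode held 28 of the 42 counts in M2 macrophages with high Cx3cr1, which were at 16.4 CPM (8.99 to 27.6) without it. M2 macrophages with low Cx3cr1 were at 27.0 CPM (21.5 to 33.3), below the 48.4 CPM and with an interval that overlaps that of the 16.4 CPM. The Cxcl10+ monocytes, at 22.8 CPM (10.4 to 43.3), held their 9 counts in 1 barcode. Free RNA, at 15.1 CPM, lay inside their interval. It also lay inside that of M2 macrophages with high Cx3cr1 once their top barcode was left out. At day 7 the same types held 5 counts in 84 inflammatory monocytes, 7 in 228 M1 macrophages, 3 in M2 macrophages with low Cx3cr1 (5.19 CPM, 1.07 to 15.2) and 0 in patrolling monocytes, in Cxcl10+ monocytes and in M2 macrophages with high Cx3cr1.

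Areg in monocytes and macrophages was carried by few barcodes with many counts each. At day 2, 105 of 1292 barcodes had any Areg count, with a mean of 8.45 counts per positive barcode and 93 in the highest. Their median depth was 14344 counts, against 11500 in the barcodes without Areg. Endothelial types, at a median of 6104.5 counts, had no Areg count in 336 barcodes. The 44 barcodes with 5 or more counts, a limit set after the values were seen, held 790 counts, or 89.1% of the total. Nrg1 in the same class was spread differently: its 446 counts lay in 226 barcodes with a mean of 1.97 counts each, and the 13 barcodes with 5 or more counts held 23.1%. The 44 Areg-rich barcodes all had monocyte and macrophage markers (15885 CPM, against 15895 CPM in the other 1248). Their basophil, T/NK and eosinophil markers were at 0 counts and their mast cell markers at 1 count. Dendritic cells, another antigen-presenting leukocyte, had 44 Areg counts in 16 of 170 barcodes at day 2 (20.5 CPM, 14.9 to 27.5). They had 11 counts in 5 of 145 at day 7 (10.6 CPM, 5.28 to 18.9), a log2 ratio of -0.95 (-2.06 to 0.02). The day 2 interval was not above free RNA, at 15.1 CPM, and the day 7 interval was, at 3.83 CPM. Without the barcode with most Areg counts in each library the dendritic ratio was -1.62 (-3.34 to -0.25).

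T-cell-labelled barcodes held Areg on both days, but at day 2 the level came from 1 barcode. The 50 barcodes of day 2 had 34 counts (125 CPM, 86.4 to 174), of which 32 lay in a single barcode with 10057 counts in all. That barcode held 68 counts of the list for group 2 innate lymphoid cells (ILC2; Gata3, Il1rl1, Rora, Il5 and Il13), 15 of the regulatory T cell list and 0 of the T/NK list. Without it the level was 7.62 CPM. The 17 barcodes with basophil markers held 0 Areg counts, which at 3 counts allows up to 40.8 CPM. The 293 barcodes of day 7 had 132 counts in 24 barcodes (81.2 CPM, 67.9 to 96.3), and 65.4 CPM without the barcode with most counts. Over all T and NK barcodes the log2 ratio was -0.57 (-1.12 to 0.02) as counted and 3.17 (1.29 to 6.24) without the top barcode of each library, so its direction rested on 1 day 2 barcode. In the T cell barcodes with a Cd3 count, Areg was at 21.8 CPM (2.63 to 78.6, 2 counts in 24 barcodes) at day 2 and at 95.003 CPM (78.2 to 114, 111 counts in 250 barcodes) at day 7.

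At day 7, Areg within the T cell label was higher in barcodes with Foxp3 than in the rest, and few barcodes held most counts. The 22 barcodes with a count of Foxp3, the defining factor of regulatory T cells, had 44 Areg counts in 5 barcodes (301 CPM, 218 to 403), with 18 in the highest. The 10 barcodes with at least 3 counts of the ILC2 list and no Cd3 count had 20 Areg counts in 4 barcodes (343 CPM, 209 to 529), of which 14 were in 1 barcode. Of the 44 counts with Foxp3, 37 were in the 16 barcodes that also reached 3 counts of the ILC2 list (393 CPM, 277 to 541). All 87 barcodes with that list were at 153 CPM (120 to 192), and the 71 of them with no Foxp3 count at 95.05 CPM (66.9 to 131). The 195 barcodes with neither Foxp3 nor 3 counts of the ILC2, mast or basophil lists had 51 counts in 11 barcodes (54.7 CPM, 40.7 to 71.9), 26 of them in 1 barcode, an interval that overlaps that of the 71. Gata3 and Rora of the ILC2 list are also made by T cells, and 16 of the 87 barcodes with 3 counts of that list had a Foxp3 count. Median depth was 6653 counts in the Foxp3 group and 3365 in the last group. In the 8 T and NK barcodes of day 7 with 5 or more Areg counts, the regulatory T cell list (Foxp3, Il2ra, Ctla4, Ikzf2 and Tnfrsf4) reached 3 counts in 8 of 8, against 73 of the other 396, and summed to 2084 CPM against 382 CPM. The ILC2 list reached 3 counts in 4 of the 8 and in 96 of the 396 (758 and 365 CPM), and median depth was 5945 and 3640.5 counts. NK-labelled barcodes of day 7 had 2 Areg counts in 111 barcodes. The 5 barcodes with mast cell markers held none, which allows up to 19.0 CPM.

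**Figure D2:**
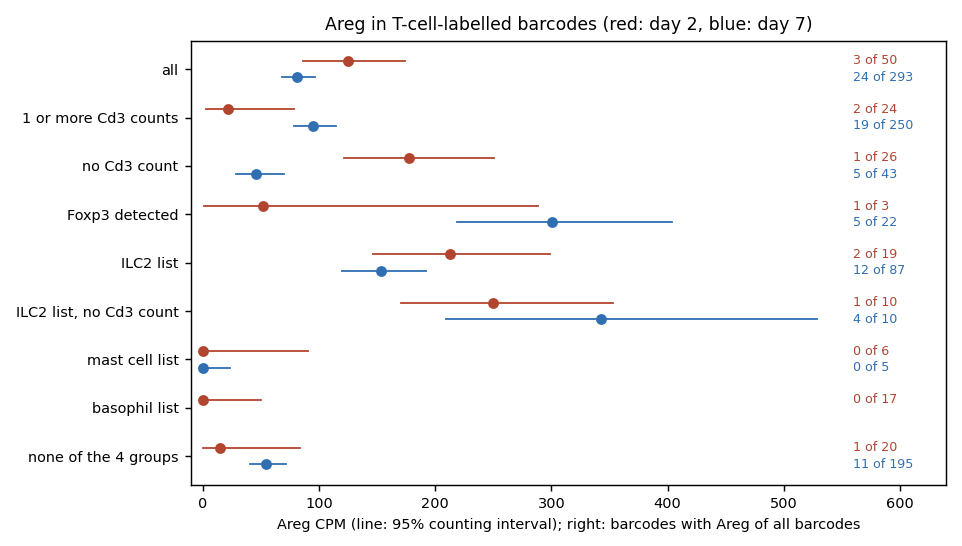
Areg in T-cell-labelled barcodes split by marker counts, as CPM of summed counts (points) with 95% counting intervals (lines), day 2 in red and day 7 in blue, and at the right the number of barcodes with Areg of all barcodes in the group. At day 7 the Foxp3 group (301 CPM) and the group with the ILC2 list and no Cd3 count (343 CPM) lie above the barcodes in none of the 4 groups (54.7 CPM), and the red points above 100 CPM all contain the 1 barcode with 32 counts.

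MuSCs, the stem cells of the muscle fibre, also held Areg at day 7, with 14 counts in 8 of 137 barcodes (18.6 CPM, 10.2 to 31.3). The interval lay above free RNA, at 3.83 CPM. All 14 counts were in barcodes with at least 3 myogenic counts, but 135 of the 137 reached that limit. The 37 barcodes with more FAP than myogenic marker counts held 4 of the 14 (17.3 CPM, 4.72 to 44.3). The other 100 held 10 (19.2 CPM, 9.22 to 35.4), a split drawn after values had been seen. Myoblasts and progenitors, the dividing and fusing descendants of MuSCs, had 0 Areg counts in 175 barcodes. FAPs, endothelial and smooth-muscle-labelled barcodes held at most 3 Areg counts per class on either day.

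Ereg, the genomic neighbour of Areg, was close to absent. It had 21 counts in all classes at day 2 and 1 at day 7. The largest entry, 11 counts in pro-remodeling FAPs at day 2, was 1 barcode of 138, and inflammatory monocytes, high in Areg at day 2, had 6 Ereg counts in 2 of 276 barcodes. No class reached 20 Ereg counts over both libraries, so no ratio is given. Tgfa (chr6:86195223-86275719, plus strand) was as sparse, with 23 counts at day 2 and 19 at day 7 and at most 10 in any type. Its 10 counts in smooth-muscle-labelled barcodes at day 2 were in 10 barcodes (1.96 CPM, 0.939 to 3.60), and free RNA held it at 0 at day 2.

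Nrg1 (chr8:31814551-32884029, minus strand), the one member ligand of ErbB3, was a transcript of monocytes and macrophages at day 2. Monocytes and macrophages held 446 of 473 counts (94.3%, 91.8 to 96.2). Inflammatory monocytes, cells newly arrived from blood, stood above every other type with 179 counts in 70 of 276 barcodes (71.1 CPM, 61.0 to 82.3). M1 macrophages followed with 168 counts in 91 of 468 barcodes (24.8 CPM, 21.2 to 28.9). Cxcl10+ monocytes (17.7 CPM), M2 macrophages with low Cx3cr1 (15.9 CPM) and with high Cx3cr1 (14.98 CPM) and patrolling monocytes (10.4 CPM) came next, with intervals that overlap one another. Those of the Cxcl10+ monocytes and of the M2 macrophages with high Cx3cr1 also overlap that of M1 macrophages. Inflammatory monocytes stood above M1 macrophages at matched depth too: after thinning to 2000 counts, 10.5% (7.15 to 14.7) of inflammatory monocytes and 4.50% (2.80 to 6.79) of M1 macrophages had a Nrg1 count. Neutrophils, which are also fresh arrivals from blood, had 10 counts in 708 barcodes (5.13 CPM, 2.46 to 9.44), not above free RNA at 5.89 CPM.

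At day 7 Nrg1 was left with 19 counts in the whole library, 9 of them in 757 monocytes and macrophages and 7 in 312 myogenic barcodes. The level in monocytes and macrophages was 27.1 CPM at day 2 and 1.197 CPM at day 7, a log2 ratio of -4.50 (-5.64 to -3.56). In inflammatory monocytes it was 2 counts in 84 barcodes at day 7. The neural barcodes, where glial Nrg1 could be looked for, held 0 counts on both days, which allows up to 14.0 CPM in the 41 barcodes of day 7. In monocytes and macrophages at day 2, barcodes with and without Areg could not be told apart by their share with Nrg1. At 2000 counts per barcode, 1 of 50 with Areg also had Nrg1 (2.00%, 0.0506 to 10.6), beside 67 of 1240 without Areg (5.40%, 4.21 to 6.81), intervals that overlap.

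Hbegf (chr18:36504927-36515805, minus strand) was a ligand of vessels at day 2. Capillary endothelial cells held 936 counts in 139 of 159 barcodes (757 CPM, 709 to 807) and the endothelial cells labelled stem held 576 counts in 111 of 150 (731 CPM, 672 to 793), intervals that overlap. Smooth-muscle-labelled barcodes had 3248 counts in 275 of 304 (636 CPM, 614 to 658). Arterial (560 CPM, 15 barcodes) and venous endothelial cells (387 CPM, 12 barcodes), tenocytes (488 CPM, 16 barcodes) and neural barcodes (486 CPM, 9 barcodes) also lay above free RNA, at 58.9 CPM, as did the labels of T cells (220 CPM), MuSCs (175 CPM) and B cells (131 CPM, 11 of 13 counts in 1 barcode). These 3 labels also held endothelial markers, at 2276, 949 and 2045 CPM in that order, beside 8371 to 11750 CPM in the endothelial types. The T and NK barcodes with under 3 endothelial marker counts were at 18.7 CPM (4 counts in 60 barcodes), the B cells with so few held 0 counts in 26 barcodes, which allows up to 40.7 CPM, and the MuSCs held 10 in 15 (151 CPM, 72.2 to 277). Dendritic cells, by contrast, had 10 counts in 8 of 170 barcodes at a median depth of 12015.5 counts (4.66 CPM), and monocytes and macrophages were at 30.7 CPM, below free RNA.

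Hbegf was lower in vessels at day 7. Over the 4 endothelial types it was 696 CPM (1689 counts, 336 barcodes) at day 2 and 69.7 CPM (117 counts, 333 barcodes) at day 7, a log2 ratio of -3.32 (-3.60 to -3.05). In the smooth-muscle-labelled barcodes it was 636 and 95.2 CPM, a ratio of -2.74 (-2.93 to -2.56). Split by marker counts, the smooth-muscle-labelled barcodes with more smooth muscle markers were at 403 CPM (356 to 455) at day 2 and 121 CPM (85.8 to 165) at day 7, and those with at least as many endothelial markers at 669 CPM (646 to 694) and 91.8 CPM (80.0 to 105). Both groups of barcodes were lower at day 7. Among endothelial types at day 7, arterial (102 CPM, 59.3 to 163) and capillary cells (92.4 CPM, 73.5 to 115) lay above stem-labelled cells (34.4 CPM, 19.7 to 55.9). Thinned to 2000 counts, 102 of 155 capillary cells at day 2 (65.8%) and 20 of 149 at day 7 (13.4%) had a Hbegf count.

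Hbegf stayed within 2-fold in monocytes and macrophages and in FAPs, taken as whole classes. Monocytes and macrophages were at 30.7 and 29.1 CPM, a log2 ratio of -0.08 (-0.31 to 0.16), and FAPs were at 36.8 and 24.9 CPM, a ratio of -0.56 (-0.86 to -0.27). Among FAP types, the adipogenic FAPs were past 2-fold lower. They went from 33.7 CPM (12 counts) to 12.8 CPM (21 counts), a ratio of -1.40 (-2.49 to -0.24). The free RNA level went from 58.9 to 25.0 CPM, and both classes stood below the former and near the latter. Cxcl10+ monocytes went from 15.2 CPM (6 counts) at day 2 to the highest level of any type at day 7, 150 CPM (114 to 194), an interval that overlaps those of neural barcodes (94.4 to 200) and tenocytes. However, 38 of their 58 counts were in 1 of 45 barcodes, and without it they were at 55.1 CPM. Tenocytes, the cells of tendon, held 62 counts (139 CPM, 106 to 178) at day 7, 37 of them in 1 of 48 barcodes. In T and NK barcodes Hbegf was at 174 and 16.5 CPM, a ratio of -3.39 (-4.03 to -2.77), with 63 day 2 counts in 11 barcodes, of which 52 were in 4 barcodes. However, 59 of the 63 were in the 11 barcodes with 3 or more endothelial marker counts, and in the others Hbegf was at 18.7 CPM (5.10 to 48.0) and 12.2 CPM (7.43 to 18.8), a ratio of -0.62 (-2.20 to 1.39) that is within 2-fold. The 24 T cell barcodes with a Cd3 count held 34 of these at day 2 (370 CPM), and the 250 at day 7 held 13 (11.1 CPM). Smooth-muscle-labelled barcodes, with 15.01% and 9.81% of the counts of all genes on the 2 days, held 54.5% (53.2 to 55.7) of 5962 counts at day 2 and 24.9% (22.3 to 27.7) of 1036 at day 7, when monocytes and macrophages held 21.1% and FAPs 19.6%. Monocytes and macrophages held 27.2% and FAPs 29.5% of the counts of all genes at day 7, more than their shares of Hbegf. Of the 3248 counts in smooth-muscle-labelled barcodes at day 2, 2989 were in the barcodes with at least as many endothelial as smooth muscle markers.

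**Figure D3:**
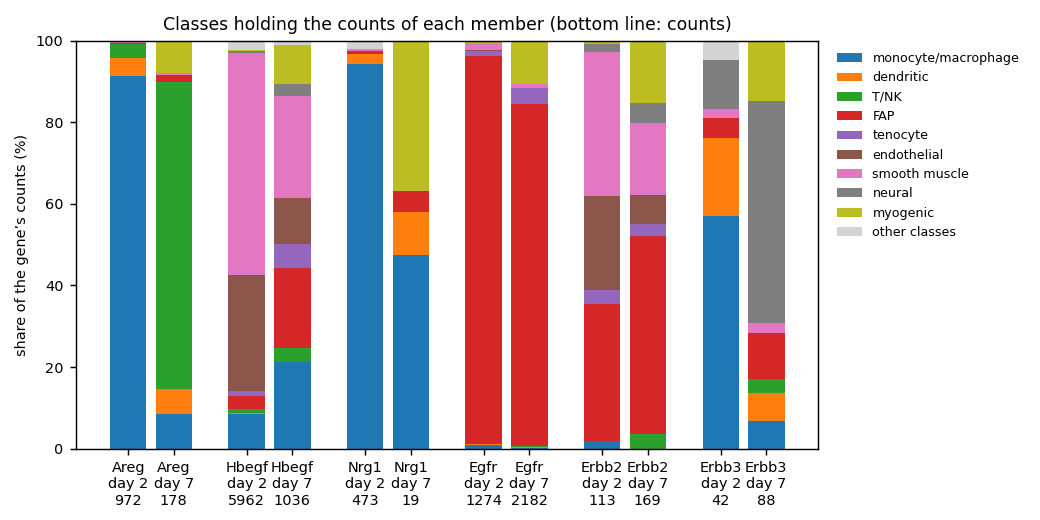
Share of each member's counts (percent of its counts over all kept barcodes, stacked to 100) held by each cell class, with day 2 and day 7 side by side and the number of counts under each bar. Areg goes from monocytes and macrophages (91.3%) to T and NK cells (75.3%), and Egfr stays with FAPs (94.98% and 83.8%). Hbegf goes from smooth-muscle-labelled and endothelial barcodes (54.5% and 28.3%) to a broad mix. In that mix monocytes and macrophages and FAPs hold less than their shares of the counts of all genes (27.2% and 29.5%).

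The EGF receptor gene Egfr (chr11:16752203-16918158, plus strand) was a FAP transcript on both days. FAPs held 1210 of 1274 counts at day 2 (94.98%, 93.6 to 96.1) and 1828 of 2182 at day 7 (83.8%, 82.2 to 85.3), whereas they were 15.1% and 29.5% of all counts. Pro-remodeling FAPs had 858 counts in 136 of 138 barcodes at day 2 (245 CPM, 229 to 262) and 1290 counts in 423 of 495 at day 7 (219 CPM, 207 to 231). The FAPs labelled stem were at 224 CPM (198 to 251) and 279 CPM (239 to 324), and the adipogenic FAPs at 191 CPM (148 to 242) and 223 CPM (201 to 247). Over all FAPs the level was 236 and 224 CPM, a log2 ratio of -0.07 (-0.18 to 0.03). That interval lay within 2-fold but covers counting error only, with 1 library per day. By type the ratio was -0.16 (-0.29 to -0.03) in pro-remodeling FAPs and 0.32 (0.04 to 0.60) in FAPs labelled stem. In adipogenic FAPs it was 0.22 (-0.15 to 0.62). Tenocytes, close relatives of FAPs, were at 114 CPM (67.6 to 180, 16 barcodes) and 199 CPM (160 to 245, 48 barcodes). Many tenocyte barcodes at day 7 held FAP markers, with 38 of 48 having more FAP than tenocyte marker counts.

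Myogenic cells held Egfr at day 7. MuSCs had 94 counts in 61 of 137 barcodes (125 CPM, 101 to 153), and myoblasts and progenitors had 136 counts in 67 of 175 (54.9 CPM, 46.0 to 64.9), intervals that do not overlap. Free RNA held Egfr at 42.3 CPM, below both intervals. FAP markers outnumbered myogenic markers in 37 of the 137 MuSC barcodes, which were at 147 CPM (102 to 206), and the other 100 were at 115 CPM (88.0 to 148). Thinned to 2000 counts, 31 of 132 MuSCs (23.5%) and 21 of 175 myoblasts had a count. Among myoblasts, the 33 barcodes with at least 2 counts of the commitment and fusion genes Myog, Mymk and Mymx (the last 2 listed as Tmem8c and Gm7325) were at 31.4 CPM (20.3 to 46.4) and the other 142 at 65.9 CPM (54.2 to 79.4). The level of the 33 was not above free RNA. Both splits were drawn after the values had been seen. Myonuclei of type IIb and IIx, the nuclei of mature fibres, had 1 count in 96 barcodes.

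Endothelial cells, monocytes and macrophages and smooth-muscle-labelled barcodes, which held Hbegf counts, held little Egfr. Endothelial barcodes had 1 Egfr count in 336 at day 2 and 0 in 333 at day 7, which allows up to 1.79 CPM, and monocytes and macrophages had 11 counts in 1292 barcodes and 3 in 757. Free RNA held Egfr at 15.1 and 42.3 CPM, above the level in these cells. Smooth-muscle-labelled barcodes had 22 and 21 counts (4.31 and 7.75 CPM), below free RNA as well, a log2 ratio of 0.85 (-0.09 to 1.78). The 55 and 54 of them with more smooth muscle markers were at 15.6 CPM (7.47 to 28.6) and 18.6 CPM (6.81 to 40.4).

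Erbb2 (chr11:98412470-98437716, plus strand), the shared partner receptor, was low and broad. Its 113 counts at day 2 lay mostly in smooth-muscle-labelled barcodes (40 counts), FAPs (38) and endothelial cells (26), and were spread over 112 barcodes. Levels ran from 7.09 to 11.4 CPM in FAP, endothelial and smooth-muscle-labelled types with at least 9 counts at day 2, with overlapping intervals. At day 7 the highest type was neural, with 8 counts in 5 of 41 barcodes (37.3 CPM, 16.1 to 73.5), followed by MuSCs with 14 counts in 13 of 137 (18.6 CPM, 10.2 to 31.3) and adipogenic FAPs with 23 counts in 21 of 232 (14.0 CPM, 8.85 to 21.0), again with overlapping intervals. Monocytes and macrophages had 2 counts in 1292 barcodes at day 2. The log2 ratios were 0.44 (-0.13 to 1.04) in FAPs, -0.58 (-1.71 to 0.45) in endothelial cells and 0.50 (-0.23 to 1.22) in smooth-muscle-labelled barcodes, so no change of Erbb2 was detectable at this depth.

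Erbb3 (chr10:128567523-128589652, minus strand), the neuregulin receptor, was concentrated in neural barcodes at day 7, with 48 counts in 21 of 41 (224 CPM, 165 to 297). These barcodes were 0.777% of all counts and held 54.5% (43.6 to 65.2) of the 88 Erbb3 counts in annotated barcodes, and barcodes without annotation that met the limits held another 49. Thinned to 2000 counts, 41.2% (24.6 to 59.3) of neural barcodes had a count, beside 0.202% of pro-remodeling FAPs and none of 248 T cells. At day 2 there were 9 neural barcodes with 5 Erbb3 counts, all in 1 barcode (75.9 CPM, 24.6 to 177), too few for a ratio. In other cells Erbb3 was near the limit of detection. FAPs labelled stem at day 7 had 8 counts in 6 of 78 barcodes (13.0 CPM, 5.63 to 25.7), and myoblasts had 12 counts in 10 of 175 (4.84 CPM, 2.50 to 8.45), not above free RNA at 3.02 CPM. The 33 myoblasts with 2 or more counts of Myog, Mymk and Mymx had 7 of the 12 (8.80 CPM, 3.54 to 18.1) and the other 142 had 5 (2.97 CPM, 0.964 to 6.93), intervals that overlap. Monocytes and macrophages had 24 counts in 24 of 1292 barcodes at day 2, with none of them holding a second count (1.46 CPM, 0.933 to 2.17, where free RNA held 1 count), and 6 in 757 at day 7, a log2 ratio of -0.87 (-2.45 to 0.46).

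Of the 48 pairs of a member and a class, 15 had at least 20 counts over both libraries, and 5 of the 15 differed by at least 2-fold, each lower at day 7. These were Areg and Nrg1 in monocytes and macrophages (2 of 4 pairs, where 12.8% of 11318 genes with enough counts were lower and 19.3% higher), Hbegf in T and NK cells (1 of 2 pairs, within 2-fold without the barcodes with endothelial markers; 8.22% lower and 9.98% higher of 8922), Hbegf in endothelial cells (1 of 2; 9.50% and 14.9% of 9616) and Hbegf in smooth-muscle-labelled barcodes (1 of 3; 7.86% and 14.1% of 11039). The 1 pair tested in dendritic cells and the 3 tested in FAPs stayed within 2-fold, where 8.44% of 8138 and 14.0% of 11851 genes were lower and 13.6% and 25.6% higher. No pair was 2-fold higher. All 3 ligands with enough counts had at least 1 lower pair, and none of the 6 receptor pairs was past 2-fold. Erbb3 in monocytes and macrophages passed it under stricter limits on barcodes (-1.02) and without the barcode with most counts (-1.07), and Egfr in smooth-muscle-labelled barcodes with own-class markers (1.08).

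**Figure D4:**
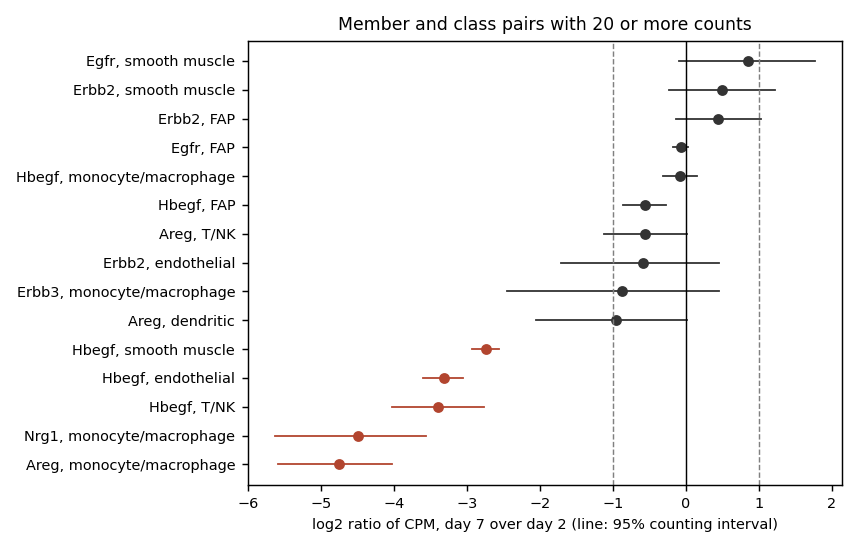
Log2 ratio of CPM, day 7 over day 2, for the 15 pairs of a member and a cell class with at least 20 counts, with points for the ratio, lines for 95% counting intervals, dashed lines at 2-fold and red for pairs past 2-fold. The 5 red pairs, all ligands, run from -4.75 to -2.74, and the 10 other pairs run from -0.95 to 0.85.

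The machinery around the receptors was followed in 5 lists of 67 genes: other ligands with Erbb4, sheddases and escorts, feedback inhibitors, adaptors and kinases, and ERK target genes. In monocytes and macrophages 12 of 56 tested list genes were at least 2-fold higher and 14 lower, where 19.3% and 12.8% of all genes were, with a median log2 ratio of -0.30 beside -0.02 over all genes. In FAPs 15 of 59 were higher and 6 lower, where 25.6% and 14.0% of all genes were (median 0.12, beside 0.21). In endothelial cells 4 and 5 of 54 were, beside 14.9% and 9.50% (median -0.11, beside 0.06). In smooth-muscle-labelled barcodes 3 and 5 of 57 were, beside 14.1% and 7.86% (median -0.11, beside 0.10). In T and NK cells 5 and 4 of 51 were, beside 9.98% and 8.22% (median -0.23, beside 0.04), and in dendritic cells 5 and 5 of 45, beside 13.6% and 8.44% (median 0.00, beside 0.05). Erbb4, the fourth receptor, had 0 counts in all 6 classes on both days. Of the other ligands, Egf and Btc had at most 7 counts in any of these classes. In monocytes and macrophages 2 genes of this list were tested, of which 1 was higher and 1 lower at day 7. The higher was Nrg2, with 5 and 17 counts (0.303 and 2.26 CPM, ratio 2.90, 1.4003 to 4.69).

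ERK target genes, which growth factor signalling switches on within hours, moved in both directions. Of those tested, 3 were higher and 4 lower of 12 in monocytes and macrophages (19.3% and 12.8% over all genes). In FAPs 5 and 4 of 13 were (25.6% and 14.0%), and in endothelial cells 1 and 3 of 12 (14.9% and 9.50%). In smooth-muscle-labelled barcodes 0 and 3 of 12 were (14.1% and 7.86%). In T and NK cells 1 and 1 of 10 were (9.98% and 8.22%), and in dendritic cells 4 and 1 of 11 (13.6% and 8.44%). Fosl1, an AP-1 subunit, was lower at day 7 in each of the 4 classes where it had 20 counts. It went from 83.3 to 1.79 CPM in endothelial cells (202 and 3 counts, log2 ratio -5.54, -7.83 to -3.97), from 52.8 to 2.21 CPM in FAPs (-4.58, -5.36 to -3.89), from 65.4 to 6.64 CPM in smooth-muscle-labelled barcodes (-3.30, -4.07 to -2.62) and from 13.8 to 1.60 CPM in monocytes and macrophages (-3.11, -4.08 to -2.28). Myc was lower in endothelial cells (-2.52, -3.07 to -2.01), Etv5, an ETS factor, in monocytes and macrophages (-2.50, -2.99 to -2.05) and the cyclin gene Ccnd1 in FAPs (-2.47, -2.73 to -2.21). In dendritic cells the immediate-early genes Egr1 (23.7 and 184 CPM, 2.95, 2.50 to 3.43) and Jun (140 and 777 CPM, 2.47, 2.28 to 2.67) were higher. Both were also past 2-fold higher in monocytes and macrophages (2.14 and 1.81) and in FAPs (1.27 and 1.25), values named after they were seen. The study gives Jun as an example of genes tied to stress from dissociation. With 1 library per day, a difference in preparation between the days was not tested. Ier3 in T and NK cells went from 2546 to 111 CPM (-4.51, -4.73 to -4.31), but only 72 of its 924 day 2 counts were outside the barcodes with basophil markers, and without those the ratio was -1.16 (-1.54 to -0.76).

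Of the feedback inhibitors tested, 3 were higher and 5 lower of 14 in monocytes and macrophages (19.3% and 12.8% over all genes), 2 and 1 of 17 in FAPs (25.6% and 14.0%), 1 and 2 of 14 in endothelial cells (14.9% and 9.50%), 2 and 2 of 17 in smooth-muscle-labelled barcodes (14.1% and 7.86%), 2 and 0 of 15 in T and NK cells (9.98% and 8.22%) and 0 and 3 of 10 in dendritic cells (13.6% and 8.44%). Of the adaptors and kinases, 1 was higher and 3 lower of 20 in monocytes and macrophages, 5 and 0 of 20 in FAPs, 1 and 0 of 20 in endothelial cells and in smooth-muscle-labelled barcodes, 1 and 1 of 19 in T and NK cells and 0 and 0 of 18 in dendritic cells. In endothelial cells Errfi1, which binds and blocks the EGF receptor kinase, went from 161 to 32.2 CPM (-2.32, -2.76 to -1.91), and Dusp5, a phosphatase of nuclear ERK, from 48.2 to 7.75 CPM (-2.64, -3.59 to -1.81). Dusp5 was also lower in smooth-muscle-labelled barcodes (-2.01, -2.58 to -1.48), where Lrig3 (1.72, 0.63 to 2.88) and the phospholipase Plcg1 (1.61, 1.30 to 1.92) were higher. Spred1, an inhibitor of RAS signalling, was lower in dendritic cells (-2.00, -3.05 to -1.09). Of the docking protein genes, Gab1 went from 79.9 to 12.2 CPM in monocytes and macrophages (-2.71, -3.03 to -2.40), and Gab2 went from 5.45 to 30.6 CPM in FAPs (2.49, 1.92 to 3.105) and from 46.8 to 4.25 CPM in T and NK cells (17 and 9 counts, -3.46, -4.81 to -2.22). Without the basophil barcodes Gab2 in T and NK cells had 5 and 9 counts (-2.02, -3.75 to -0.10), under the minimum of 20. Of the sheddases and escorts, 4 were higher and 1 lower of 8 in monocytes and macrophages and 3 and 1 of 9 in FAPs. In endothelial cells 1 and 0 of 8 were, and in smooth-muscle-labelled barcodes 0 and 0 of 8. In T and NK cells 1 and 2 of 7 were, and in dendritic cells 1 and 1 of 6. The shares over all genes are those given beside the feedback inhibitors. Among genes that release ligands, the protease Adam19 was higher in FAPs (26.5 and 152 CPM, 2.52, 2.27 to 2.79) and in dendritic cells (2.38, 1.59 to 3.23). In T and NK cells Rhbdf2, an escort of the sheddase ADAM17, was lower (-1.69, -2.49 to -0.85), and Cd9, a tetraspanin, had a ratio of -1.62 (-1.88 to -1.37) as counted and -0.41 (-0.79 to -0.02) without the basophil barcodes.

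**Figure D5:**
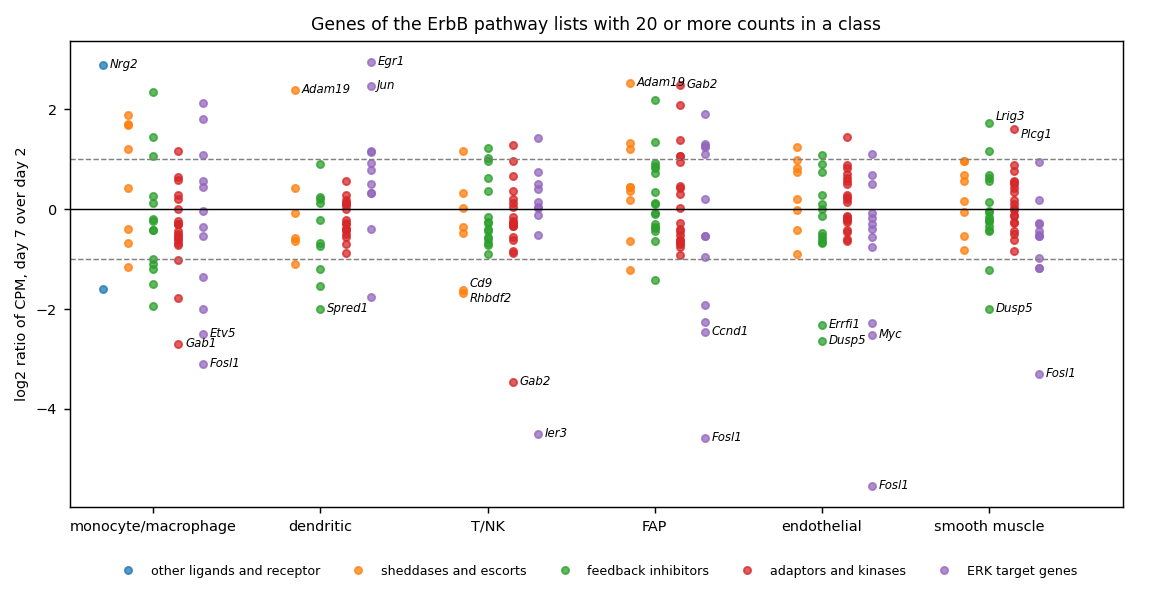
Log2 ratio of CPM, day 7 over day 2, for each gene of the 5 ErbB pathway lists with at least 20 counts in a class, coloured by list, with dashed lines at 2-fold and counts under 3 set to 3. The named genes are the up to 4 farthest from 0 in each class, and Fosl1 (-5.54 to -3.11) is the lowest list gene in monocytes and macrophages, FAPs, endothelial cells and smooth-muscle-labelled barcodes.

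The genes most like each member in pattern were sought over 41 sums of 1 type at 1 day, among 12481 genes, by Pearson's r of log2(CPM + 1). The sums share libraries and differ in depth, so r is a description. Areg was closest to Ltb4r1, a leukotriene B4 receptor (r = 0.77), Itgb7, an integrin of lymphocytes (0.72), and Wwc1 (0.71). Hbegf was closest to Nes (0.73), Slc1a1 (0.73) and Eva1c (0.72), and Nrg1 to Cd177 (0.93), 9130230L23Rik (0.89) and Ms4a8a (0.87). Egfr was closest to Mrc2, a collagen receptor of stromal cells (0.96), Dnm3os (0.95) and Gm26523 (0.94), and Erbb2 to Zfp462, Nav3 and Pcdhb16 (0.92 each). Erbb3 was close to Fxyd3 (0.75) and Kcna2 (0.73).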

How the data were processed

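Libraries of whole dissociated muscle were grouped by the day in their labels, with 1 library per day. The authors deposited UMI counts for each gene in each barcode, as whole numbers (mm10, 27998 genes), made with Cell Ranger, whose version is 3.1.0 in the submitters' notes and another in the file headers. The authors also deposited SoupX values, which are estimated counts corrected for ambient RNA and need not be whole. They used Seurat (3.1.5 in the submitters' notes, another version in the study's methods) and annotated barcodes by cell type after removing doublets, per the methods of the study. No doublet caller was run here.

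Barcodes were kept when annotated and holding at least 750 genes, 1000 transcripts and at most 30% mitochondrial transcripts. Uncorrected counts were summed per type or class and scaled to counts per 1000000 (CPM). Intervals were exact (Poisson for sums, Clopper-Pearson for shares, conditional binomial for ratios) at 95%. UMI counts without replicate libraries give counting error only. A count of 0 was set against a limit of 3 counts, and counts under 3 were set to 3 for the 2-fold rule, which needed 20 counts over both libraries. Shares of barcodes with a count were also taken after thinning to 2000 counts.

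Named genes were the 8 members, up to 4 pathway genes per class farthest from 0 past 2-fold, and the 3 genes most like each member with 100 counts or more, of which 1 is not reported here. Members, lists and rules were chosen with earlier results of these data known. Splits by 5 counts of a member, by smooth muscle and endothelial markers and by commitment genes were added after values were seen. The calculation of ratios and intervals was checked on simulated counts. Coordinates came from GENCODE, which matched 27645 of 27998 identifiers. Python 3.11.15, NumPy 2.4.6 and SciPy 1.17.1 were used.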

Additional observations from a re-analysis of the deposited data

Results flagged for a closer look

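Barcodes that met the quality limits but had no annotation, 680 at day 2 and 477 at day 7, also held the members, and no comparison above used them. At day 2 Hbegf was at 195 CPM there, Egfr at 40.2 CPM, Areg at 19.1 CPM, Nrg1 at 12.8 CPM, Erbb3 at 6.12 CPM, Erbb2 at 5.60 CPM, Ereg at 1.57 CPM and Tgfa at 0.70 CPM. At day 7 Hbegf was at 40.8 CPM, Egfr at 30.6 CPM, Erbb3 at 15.1 CPM, Areg at 5.25 CPM, Erbb2 at 4.64 CPM and Nrg1 at 2.78 CPM. Each of these sums was above 3 counts. Erbb3 had 49 counts in these barcodes at day 7, about as many as the 48 in the annotated neural barcodes.

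Pathway genes Cd9, Etv5, Gab1, Gab2 and Myc were past 2-fold in opposite directions in different classes, with counting intervals that exclude 0, and the difference between the classes was not tested. Cd9 had a log2 ratio of 1.72 in monocytes and macrophages and -1.62 in T and NK cells, but -0.41 in T and NK cells without the basophil barcodes, which is not past 2-fold. Etv5 was at 1.31 in FAPs and -2.50 in monocytes and macrophages, and Gab1 at 2.08 and -2.71 in the same classes. Gab2 was at 2.49 in FAPs and -3.46 in T and NK cells, but without the basophil barcodes the latter had 5 and 9 counts, under the minimum of 20. Myc was at 1.14 in dendritic cells and -2.52 in endothelial cells.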

How the results depend on the processing

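No paired analysis was possible because each day has 1 library. Of 48 recomputed counts of pairs, 44 stayed within 1.5 times the reported count. Member pairs 2-fold higher at day 7 were 0 as reported, 2 when only barcodes with own-class markers were used (Areg in T and NK cells, Egfr in smooth-muscle-labelled barcodes), 1 without the barcode with most counts and 2 with a minimum of 5 counts, and lower pairs went from 5 to 9 with that minimum (Egfr and Erbb2 in T and NK cells only because counts under 3 were set to 3), to 7 without the barcode with most counts (adding Areg in dendritic cells and Erbb3 in monocytes and macrophages) and to 6 under stricter limits (adding the latter). In T and NK barcodes with under 3 endothelial counts the lower pairs were 5 as well, but Hbegf in T and NK cells was no longer among them (-0.62) and Areg there was (-1.21). Areg in T cell barcodes at day 2 was 232 CPM in that setting, 191 CPM under stricter limits, 83.5 as a mean over cells, 21.8 with own-class markers and 7.62 without the top barcode. At day 7 it was 107 CPM with mitochondrial and ribosomal protein genes out of the totals and 65.4 without the top barcode. The T and NK ratio of Areg reversed to 2.62 with own-class markers and to 3.17 without the top barcodes. Of 112 recomputed log2 ratios of members, 96 kept their call or stayed inside the reported interval, 1 (that of Hbegf just given) had an interval that came to hold 0, 8 kept their direction with an interval that no longer held 0, 5 (means over cells) left the reported interval and 2 reversed. Leaving mitochondrial and ribosomal protein genes out of totals moved every FAP ratio by -0.18. With the smooth-muscle-labelled barcodes that hold at least as many endothelial counts left out of the class and of the total, the smooth-muscle-labelled share of Hbegf at day 2 was 8.71%, and the share of the endothelial types 56.8%. Leaving out single barcodes, basophil barcodes and both splits by endothelial markers were chosen after seeing the data. Of 165 recomputed levels 134, and of 63 recomputed source shares 56, moved by less than their counting interval, whereas 12 of 19 shares of barcodes with a count moved by more when thinned to 1000 counts in place of 2000. Depth limits Ereg, Tgfa, Erbb2 and Erbb3.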
